A study of Mus musculus with 19 samples.

Results

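Fatty acids are burned in 2 organelles of the kidney tubule cell, and the 34 genes described here carry out or control that work. They are 18 mitochondrial genes of the carnitine shuttle and of beta-oxidation, 6 peroxisomal genes and 2 genes whose products are found in both organelles. The others are 5 genes grouped under fatty acid uptake and activation, 2 transcriptional regulators and Pdk4. That group of 5 holds the acyl-CoA thioesterase Acot1, which is no activating enzyme. The members were taken by gene symbol from the 54146 Ensembl genes listed in each of 5 RNA-seq libraries, and all 34 were found and tested. The libraries came from whole kidneys of B6C3F1/J mice at postnatal day 21 (3 weeks). The 3 control libraries carry floxed Dnmt3a and Dnmt3b, the genes of the de novo DNA methyltransferases, and no Cre. The 2 KspCre DKO (double knockout) libraries carry the same floxed alleles with a Cre recombinase driven by the promoter of Ksp-cadherin (Cdh16), a gene of tubule epithelium, so that cells which do not use this promoter keep both genes. The labels do not say that each library is a separate animal, so the spread between libraries may be partly technical. The series has 19 samples, and its 14 bisulfite libraries are not analysed here.

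In mitochondrial beta-oxidation a long-chain acyl-CoA enters through the carnitine shuttle and is shortened by repeated rounds of dehydrogenation, hydration, dehydrogenation and thiolysis, with the electrons passed to the respiratory chain through electron transfer flavoprotein. Peroxisomes shorten very long and branched chains first, and the hydrogen peroxide made there is removed by catalase. Proximal tubule cells are rich in both organelles and rely on fatty acids for ATP. The nuclear receptor PPAR-alpha, with its coactivator PGC-1alpha, drives many genes of both routes.

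No member passed the test between KspCre DKO and control kidneys. With limma on log2(TPM + 1), where TPM are transcript abundances per length that add up to the same total in every library, and Benjamini-Hochberg adjustment over 13963 genes, 0 of 34 members had an adjusted p below 0.05, against 23 of all genes tested (0.165%; 14 higher and 9 lower). Rescaling moved that split to 23 and 7 with median-of-ratios factors, 35 and 7 with quantile normalization and 26 and 11 with mitochondrially encoded genes left out of the total. The smallest adjusted p of a member was 0.425, for Acat1, and 3 members had an unadjusted p below 0.05 (8.82%), against 1440 of all genes (10.3%). Estimates lay below 0 in 27 of 34 members (79.4%) and in 61.7% of all genes, with medians of -0.23 and -0.14. The 95% intervals of 31 members include 0, and those of Acsl1, Acot1 and Acat1 end at -0.07, -0.04 and -0.12, so with 3 against 2 libraries most members could differ in either direction. In whole-kidney RNA fewer cells of a type and less RNA per cell cannot be told apart. Log2 differences below are KspCre DKO minus control on the log2(TPM + 1) scale, which understates the change of low genes.

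The organelles nevertheless sat apart in these estimates, which are described here without a test. All 18 mitochondrial members had an estimate below 0, with a median of -0.27 and a range of -1.07 to -0.01. Of the 6 peroxisomal members 5 had an estimate above 0, with a median of 0.13 and a range of -0.49 to 0.49. Over all genes tested, 61.7% of estimates lay below 0, with a median of -0.14. The mitochondrial count rests on the scaling, as 14 of 18 lay below 0 with median-of-ratios factors or without mitochondrially encoded genes and 12 of 18 with quantile normalization, while the peroxisomal count stayed at 1 of 6 below 0 under each. It also rests on 1 library: without KspCre DKO replicate 2 the mitochondrial members split into 8 below and 10 above 0, and without KspCre DKO replicate 1 the peroxisomal members split into 4 below and 2 above.

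**Figure D1:**
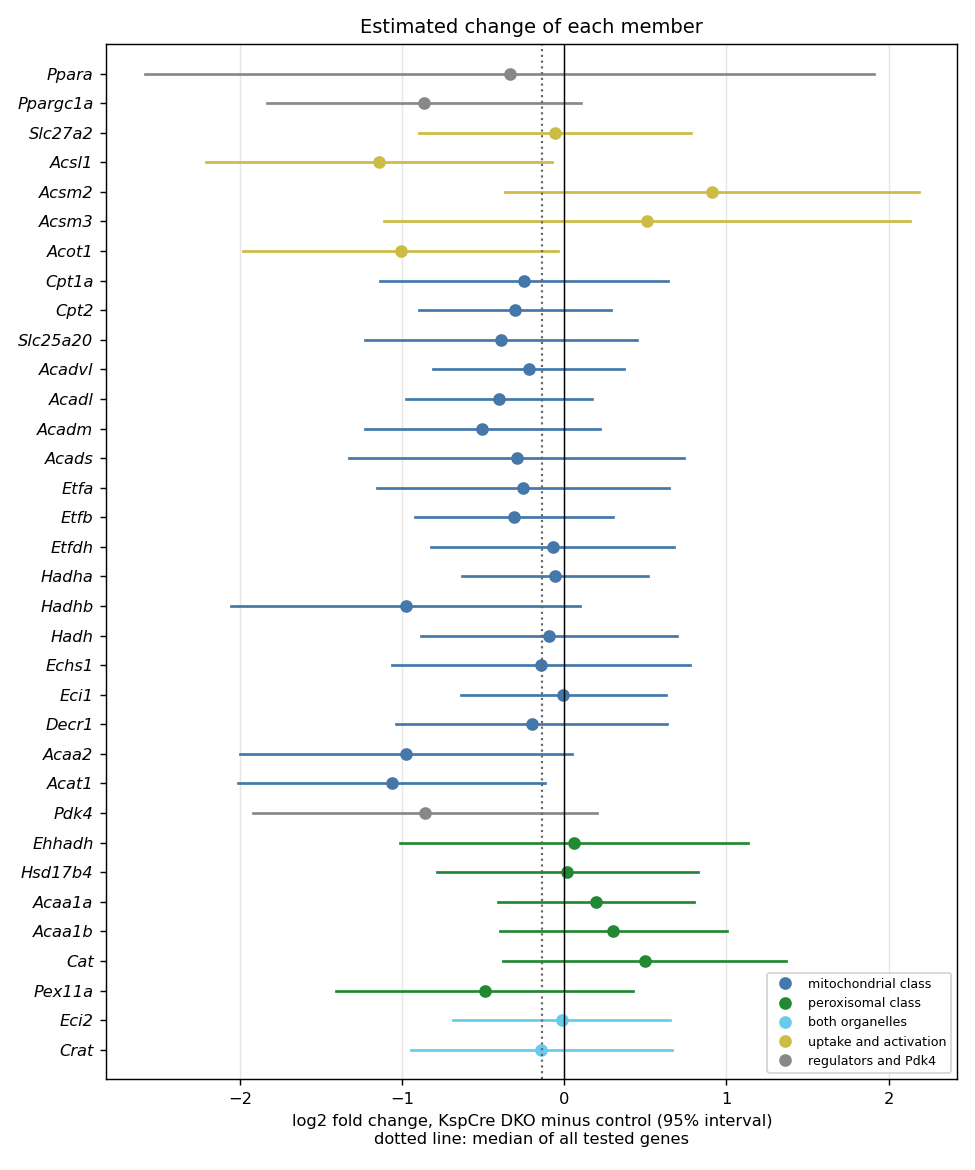
Log2 difference of each of the 34 members, KspCre DKO minus control, on the log2(TPM + 1) scale, with points for the limma estimate and bars for its 95% interval, grouped by role. The 18 mitochondrial genes lie at or below 0 and 5 of 6 peroxisomal genes lie above it, and 31 of the 34 bars cross 0. The dotted line marks the median of all genes tested (-0.14), of which 61.7% had an estimate below 0.

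The 2 regulators were, with Acsm3 and Pdk4, the members of lowest abundance. Ppara, which encodes PPAR-alpha, had 4.31, 6.81 and 0.550 TPM in controls and 9.04 TPM in KspCre DKO replicate 1, and it is listed at 0 in replicate 2, where an exact 0 can be a failed estimate. The KspCre DKO libraries thus sat above and below all 3 controls, and the interval of the difference ran from -2.59 to 1.91. Ppargc1a, which encodes PGC-1alpha, was at 8.51, 15.3 and 14.0 TPM in controls and 9.77 and 3.91 TPM in KspCre DKO libraries (-0.87 ± 0.42, SE; adjusted p = 0.530 by limma with Benjamini-Hochberg adjustment). Its replicate 1 lay within the control range and its replicate 2 below it.

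PPAR-alpha binds DNA as a pair with RXR at direct repeats of the motif AGGTCA with 1 base between them, and many other nuclear receptors bind a single copy. RefSeq windows of 300 bases (GRCm38.p6; 250 before to 50 after a transcript start) were found for 29 members, 31 windows in all, and no window was used for Decr1, Acaa2, Acat1, Hsd17b4 and Crat. A single AGGTCA on either strand was in a window of 6 of 29 members (20.7%), against 18.1% of the 27025 genes with a window. These shares are close, so the count is no result about the members. In 8 members the transcript start of a window lies inside the annotated gene rather than at its edge, for Cpt1a 975 bases inside it. The whole repeat AGGTCANAGGTCA was in 0 of 29 members and in 13 of all genes (0.0481%). The element TNAAGGTCA of the estrogen-related receptors, which holds AGGTCA within it, was in 0 of 29 and in 1.43% of all. Both are so rare in these windows that 0 of 29 is no result about the members. Imperfect repeats and bases outside the windows were not searched. The 6 matches are printed as 30 bases on the strand of the gene, with the motif in capitals, to show where the letters lie. They fall in windows of 5 mitochondrial or uptake genes and 1 peroxisomal gene.
Slc27a2, chr2:126552792-126552821, plus strand: gcaccacgccttTGACCTtttcaacgtggg
Cpt1a, chr19:3323195-3323224, plus strand: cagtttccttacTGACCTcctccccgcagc
Acadvl, chr11:70015498-70015527, minus strand: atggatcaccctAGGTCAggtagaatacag
Acadm, chr3:153944864-153944893, minus strand: gTGACCTtcgggctccggtgacactgggca
Echs1, chr7:140116487-140116516, minus strand: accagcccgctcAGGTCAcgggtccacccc
Cat, chr2:103485340-103485369, minus strand: tgtgactctcagAGGTCAgagaacaccagc
TGACCT is AGGTCA read on the other strand. A match describes these letters in this window and is no measure of binding. The estimates of the 6 genes differ in sign, from -0.51 for Acadm to 0.49 for Cat.

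Uptake and activation held the highest member of all and some of the most variable. Slc27a2, the very long-chain fatty acid transporter and acyl-CoA synthetase FATP2, had 872, 885 and 770.5 TPM in controls and 1287 and 509 TPM in KspCre DKO libraries. It was the most abundant member in every library, and its KspCre DKO values lay on either side of the controls, so that its estimate of -0.06 ± 0.37 averages a high and a low library. Acsl1, the main long-chain acyl-CoA synthetase of oxidative tissues (chromosome 8, 46471037 to 46536051, GRCm38.p6), had 65.6, 94.0 and 80.8 TPM in controls and 64.6 and 19.2 TPM in KspCre DKO libraries. Its replicate 1 lay just below the lowest control and its replicate 2 far below, and its estimate was -1.14 (95% interval -2.21 to -0.07; adjusted p = 0.446, limma). Acot1, a cytosolic acyl-CoA thioesterase, had 121, 106 and 110.2 TPM in the controls, a narrow range, and 95.5 and 31.7 TPM in the KspCre DKO libraries. Both lay below all controls, with an estimate of -1.01 (95% interval -1.98 to -0.04; adjusted p = 0.468, limma). Acot1 has close copies beside it in the genome, among which reads are divided by estimate.

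The medium-chain synthetases Acsm2 and Acsm3 are both on chromosome 7 and varied most among the controls of this role. Acsm2 was at 234, 85.5 and 101 TPM in controls and 426 and 133 TPM in KspCre DKO libraries, with the highest estimate of all members (0.91; 95% interval -0.37 to 2.19). Its replicate 2 lay within the control range. Acsm3 was at 4.97, 0.180 and 0.290 TPM in controls and 1.69 and 2.27 TPM in KspCre DKO libraries. Its controls alone spanned 27.6-fold, and both KspCre DKO values lay within that span.

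The carnitine shuttle gave the same order of libraries for each gene in the KspCre DKO group. Cpt1a, which encodes the rate-limiting carnitine palmitoyltransferase of the outer mitochondrial membrane, had 64.5, 56.9 and 51.9 TPM in controls and 76.4 and 30.4 TPM in KspCre DKO libraries. Slc25a20, the carnitine-acylcarnitine carrier of the inner membrane, had nearly equal controls at 43.1, 43.5 and 41.1 TPM and KspCre DKO values of 49.0 and 21.1 TPM. For both genes replicate 1 lay above and replicate 2 below all controls, with estimates of -0.25 ± 0.39 and -0.39 ± 0.37. Cpt2, which returns the acyl group to CoA inside the matrix, had 127, 122 and 107 TPM in controls and 109 and 83.0 TPM in KspCre DKO libraries. Its replicate 1 lay within the controls and its replicate 2 below them.

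Among the acyl-CoA dehydrogenases, which take the first step of each round, Acadl alone lay below all controls in both KspCre DKO libraries. This long-chain enzyme was at 156, 153 and 165 TPM in controls and 137 and 104 TPM in KspCre DKO libraries (-0.40; 95% interval -0.97 to 0.17; adjusted p = 0.619, limma). Acadvl, for very long chains, had 168, 243 and 196 TPM in controls and 177 and 166 TPM in KspCre DKO libraries, the closest KspCre DKO pair of the 4 dehydrogenases. Acadm, the medium-chain enzyme, had 260.1, 183 and 189 TPM against 194 and 110.2 TPM in the same order, with replicate 1 inside the controls and replicate 2 below. Acads, the short-chain enzyme, had 56.4, 29.9 and 36.8 TPM in controls and 52.7 and 19.4 TPM in KspCre DKO libraries, again with replicate 2 alone below the controls. The estimates of Acadvl, Acadm and Acads were -0.22, -0.51 and -0.29, and the 95% interval of each included 0.

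Electron transfer flavoprotein is a dimer of the products of Etfa and Etfb, and the Etfdh product hands its electrons to ubiquinone. Etfb was the second most abundant member, at 796, 644 and 624 TPM in controls and 686 and 443 TPM in KspCre DKO libraries. Etfa had 169.7, 88.8 and 157 TPM in controls and 158 and 78.5 TPM in KspCre DKO libraries, and for both subunits replicate 1 lay within the controls and replicate 2 below. Etfdh had 41.9, 23.3 and 30.9 TPM in controls and 33.9 and 25.8 TPM in KspCre DKO libraries, both within the control range. Their estimates were -0.31 ± 0.27, -0.26 ± 0.39 and -0.07 ± 0.33, none past the test.

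The trifunctional protein carries the last 3 steps for long chains, and its alpha and beta subunits, encoded by Hadha and Hadhb, assemble in equal numbers. Hadha (chromosome 5, 30119423 to 30154980) and Hadhb (chromosome 5, 30155253 to 30184593, GRCm38.p6) are read away from each other, with 272 bases between their starts. The 250 bases before the start of Hadha (RefSeq, chr5:30154981-30155230, minus strand) are printed because a single interval precedes both genes, and capitals mark the 228 bases that also lie in the upstream window of Hadhb.
Hadha upstream: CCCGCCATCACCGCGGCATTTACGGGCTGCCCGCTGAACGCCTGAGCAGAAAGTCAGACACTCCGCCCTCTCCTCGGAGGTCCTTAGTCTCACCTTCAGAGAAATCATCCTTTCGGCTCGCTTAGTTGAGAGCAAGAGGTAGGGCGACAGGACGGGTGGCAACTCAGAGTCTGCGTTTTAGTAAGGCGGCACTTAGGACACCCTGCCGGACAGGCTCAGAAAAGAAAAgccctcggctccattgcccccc
The GC content of this interval is 58.8%. Hadha was one of the steadiest members, at 68.7, 78.7 and 69.0 TPM in controls and 65.9 and 72.6 TPM in KspCre DKO libraries (-0.06; 95% interval -0.63 to 0.52). Hadhb had 109, 90.3 and 135 TPM in controls and 101 and 30.1 TPM in KspCre DKO libraries (-0.98; 95% interval -2.05 to 0.10; adjusted p = 0.526, limma). The ratio of Hadhb to Hadha TPM was 1.59, 1.15 and 1.95 in the controls, 1.53 in KspCre DKO replicate 1 and 0.414 in replicate 2. The partners thus diverged in 1 library alone, where Hadha lay within its control range and Hadhb at less than any other library. The difference between the 2 genes was not tested.

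In the other enzymes of the round KspCre DKO replicate 2 was below all controls. Echs1, the short-chain enoyl-CoA hydratase, had 104, 57.5 and 71.5 TPM in controls and 102 and 45.4 TPM in KspCre DKO libraries. Hadh, the short-chain hydroxyacyl-CoA dehydrogenase, had 174, 133 and 136 TPM against 199 and 94.7 TPM in the same order. For Hadh, and for the isomerase Eci1 with 80.6, 91.6 and 83.5 TPM against 104 and 69.2 TPM, replicate 1 lay above and replicate 2 below all controls, which left estimates of -0.09 and -0.01. Decr1, the dienoyl-CoA reductase needed for polyunsaturated chains, had 58.0, 37.3 and 36.2 TPM in controls and 51.3 and 26.7 TPM in KspCre DKO libraries.

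The mitochondrial thiolases, which release acetyl-CoA, had the lowest estimates of the 18 mitochondrial members beside Hadhb. Acat1, the acetoacetyl-CoA thiolase of ketone and isoleucine metabolism (chromosome 9, 53580522 to 53610350, GRCm38.p6), was at 202, 148 and 156 TPM in controls (168 ± 29.3, SD, n = 3) and 131 and 47.6 TPM in KspCre DKO libraries (89.5 ± 59.3, SD, n = 2). Both KspCre DKO libraries lay below all controls, and the estimate was -1.07 (95% interval -2.01 to -0.12; adjusted p = 0.425, limma). Acaa2, the thiolase of medium and long chains, had 186, 151 and 146 TPM in controls and 145 and 44.9 TPM in KspCre DKO libraries (-0.98; 95% interval -2.0 to 0.05; adjusted p = 0.507, limma). Its replicate 1 lay just below the lowest control, so its separation from the controls rests on replicate 2. Pdk4, the kinase that holds back pyruvate dehydrogenase when fatty acids are the fuel, had 13.8, 17.7 and 12.3 TPM in controls and 13.7 and 3.92 TPM in KspCre DKO libraries. Only its replicate 2 lay outside the control range (-0.86; adjusted p = 0.574, limma).

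Estimates of the peroxisomal members lay mostly above 0. Cat, the catalase gene (chromosome 2, 103453904 to 103485153, GRCm38.p6), was at 212, 117 and 110.1 TPM in controls and 269 and 145 TPM in KspCre DKO libraries (0.49; 95% interval -0.38 to 1.37; adjusted p = 0.687, limma). Its replicate 1 was above all controls and its replicate 2 between them. Acaa1a and Acaa1b, the paired peroxisomal thiolases, are both on chromosome 9 and are near-identical, so the division of reads between them is uncertain. Acaa1a had 87.8, 70.9 and 77.3 TPM in controls and 102 and 79.0 TPM in KspCre DKO libraries, and Acaa1b had 203, 193 and 155 TPM against 300.1 and 169 TPM. For both, replicate 1 was above all controls and replicate 2 inside their range, with estimates of 0.19 ± 0.26 and 0.30 ± 0.31.

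Ehhadh, the bifunctional hydratase and dehydrogenase of the inducible peroxisomal route, had 75.8, 33.1 and 29.1 TPM in controls and 61.9 and 30.7 TPM in KspCre DKO libraries. Control replicate 1 stood well above the other controls for this gene, and both KspCre DKO values lay inside the control range (0.06; 95% interval -1.01 to 1.13). Hsd17b4, the bifunctional enzyme for branched and very long chains, had 57.9, 47.1 and 45.7 TPM in controls and 73.3 and 34.8 TPM in KspCre DKO libraries, on either side of all controls. Pex11a, a membrane protein of peroxisome division and the only member of the class that is no enzyme, had 37.9, 43.8 and 36.4 TPM in controls and 44.8 and 16.9 TPM in KspCre DKO libraries. It was the single peroxisomal member with an estimate below 0 (-0.49; 95% interval -1.41 to 0.43). The members of both organelles were Eci2, an isomerase, with 103, 109.8 and 84.8 TPM against 123 and 77.2 TPM, and Crat, the carnitine acetyltransferase, with 53.6, 35.7 and 30.5 TPM against 45.2 and 27.2 TPM. Their estimates were -0.02 and -0.14.

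**Figure D2:**
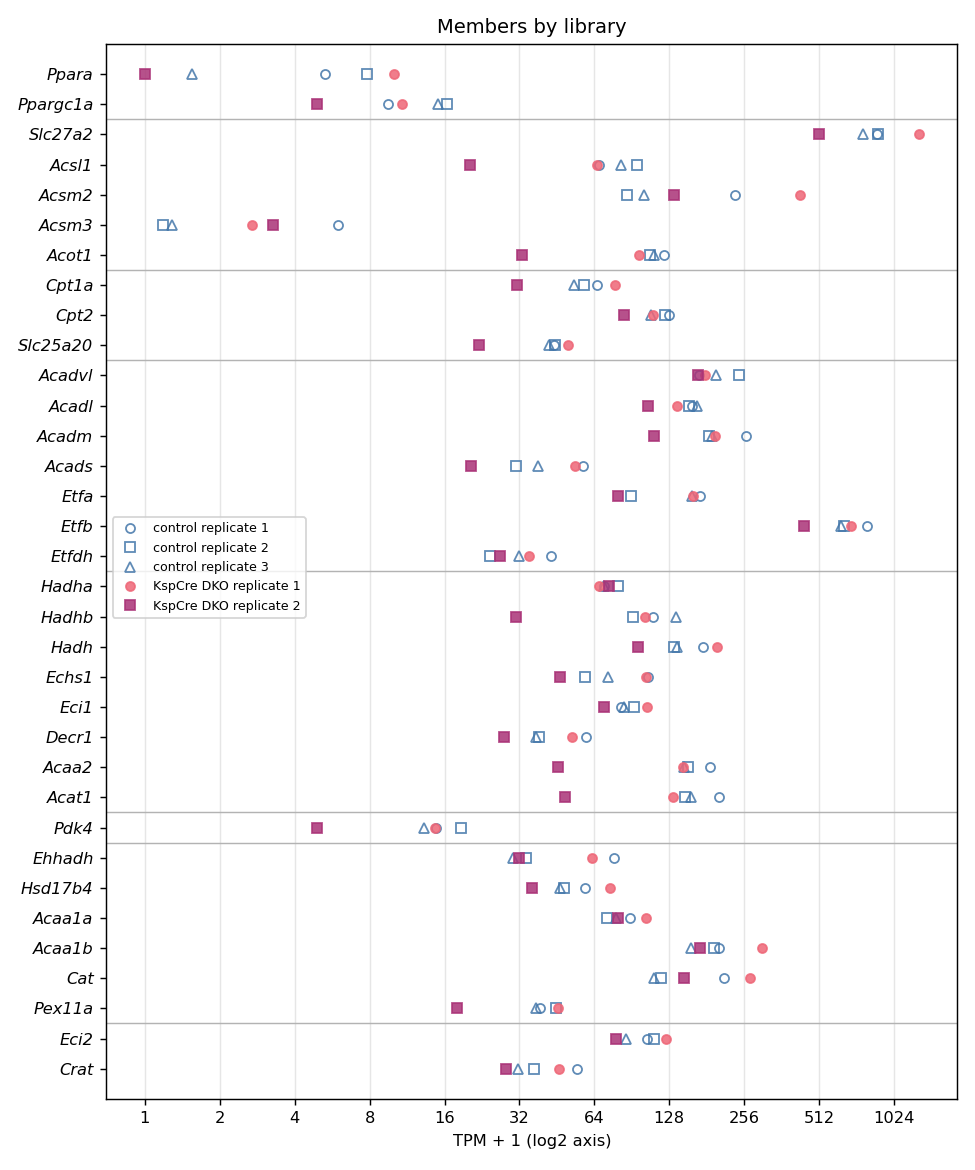
TPM + 1 of the 34 members in each of the 5 libraries, on a log2 axis, with open symbols for the 3 controls and filled symbols for the 2 KspCre DKO libraries. KspCre DKO replicate 2 (filled squares) lies left of all controls for 26 of 34 members, as it does for 57.7% of all genes tested.

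The contrast between organelles was then taken within each library, where a scaling that multiplies a whole library largely cancels. The mean log2(TPM + 1) of the 18 mitochondrial members less that of the 6 peroxisomal members was 0.342, 0.441 and 0.65 in the controls and 0.00594 and 0.0306 in the KspCre DKO libraries. The control mean was 0.478 ± 0.157 (SD, n = 3) and the KspCre DKO mean 0.0182 ± 0.0174 (SD, n = 2), a difference of -0.46. Both KspCre DKO libraries lay below every control, with 0.311 between the nearest pair, although the same libraries stood far apart in most single genes. In single genes such a separation is common with 3 against 2 libraries. Of all genes tested, 15.6% had both KspCre DKO libraries below all controls and 10.5% had both above. These shares hold the general level of each library, and no such share was taken for differences within a library. The organelle difference stayed at -0.45 or -0.46 under the other pseudocounts, filters and scalings. The filters removed no gene of either class, and a factor for a whole library largely cancels. Filters and such scalings could thus hardly move it. It lay between -0.37 and -0.53 when each library was left out. It was -0.42 with Eci2 and Crat counted as peroxisomal, -0.58 without Pex11a and -0.38 without Cat, and the libraries of the 2 groups did not overlap in any of these. The members were proposed with results of these data in view, so no p-value is given for this score.

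Level by level the 2 KspCre DKO libraries differed, and the account depends on the measure. Mean log2(TPM + 1) of the mitochondrial members was 6.89, 6.58 and 6.66 in controls and 6.79 and 5.90 in KspCre DKO libraries, and that of the peroxisomal members 6.55, 6.14 and 6.01 against 6.78 and 5.87. On that scale replicate 1 had a peroxisomal mean above all controls, and replicate 2 had both means below all controls. Summed mitochondrial TPM were 2865, 2375 and 2429 in controls and 2571 and 1512 in KspCre DKO libraries. Summed peroxisomal TPM were 674, 504.8 and 453.7 in controls and 851 and 475.3 in KspCre DKO libraries. By sums, in which abundant genes such as Acaa1b and Cat weigh most, the peroxisomal value of replicate 2 and the mitochondrial value of replicate 1 lay inside the control range. Divided by the median-of-ratios factors, the mitochondrial sums were 2690.0, 2426 and 2241 in controls and 2205 and 1928 in KspCre DKO libraries, both below all controls, and the peroxisomal sums 633, 516 and 419 against 729.9 and 606. This scaling was added after seeing the data. The ratio of mitochondrial to peroxisomal sums was 4.25, 4.70 and 5.36 in controls and 3.02 and 3.18 in KspCre DKO libraries.

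Other genes of the same organelles did not separate the groups. For 23 other mitochondrial and 37 other peroxisomal genes the same difference of means was -0.0293, 0.509 and 0.521 in controls and -0.0631 and 0.215 in KspCre DKO libraries, where control replicate 1 lay below KspCre DKO replicate 2. The difference between group means was -0.26, within the spread of 0.314 among controls (SD, n = 3). The gap between groups seen in the members thus did not appear in these other genes, and the difference between the gene sets was not tested.

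**Figure D3:**
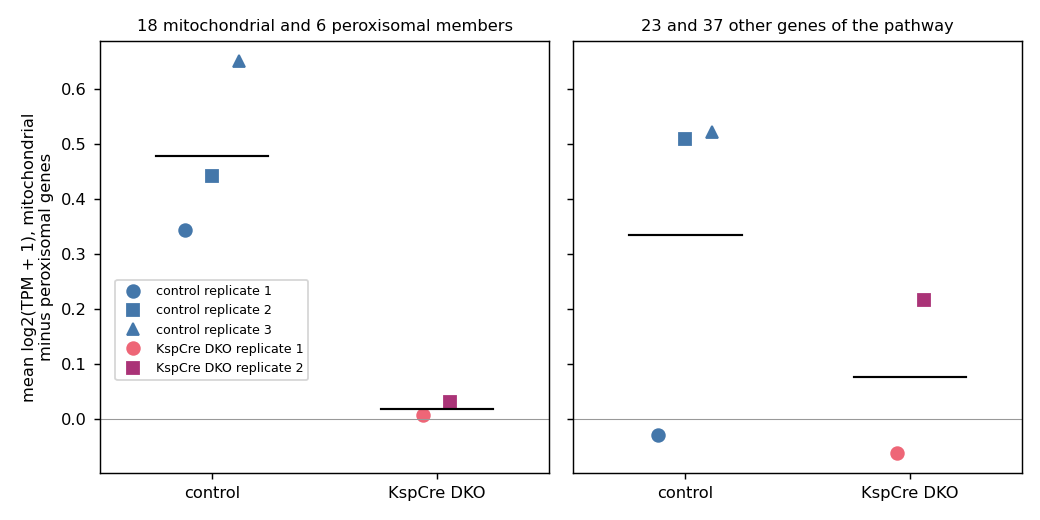
Mean log2(TPM + 1) of mitochondrial genes minus that of peroxisomal genes in each library, for the 34-gene set (left, 18 and 6 genes) and for the rest of the pathway (right, 23 and 37 genes), with bars for group means. In the left panel both KspCre DKO libraries lie near 0, below the controls at 0.342 to 0.65, and in the right panel the groups overlap.

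Across the members the 2 KspCre DKO libraries lay further apart than the group means. Replicate 2 was below replicate 1 in 32 of 34 members (94.1%) and in 79.3% of all genes, with medians of -1.03 and -0.54 on the log2 scale, and the exceptions were Acsm3 and Hadha. Replicate 2 lay below all controls in 26 of 34 members, against 57.7% of all genes, and replicate 1 lay above all controls in 13 of 34, against 40.0%. Both KspCre DKO libraries lay below all controls in 5 members, namely Acsl1, Acot1, Acadl, Acaa2 and Acat1 (14.7% of members, 15.6% of all genes). None of the 34 had both above all controls (10.5% of all genes). In 9 members replicate 1 was above and replicate 2 below all controls (26.5%, against 19.1% of all genes), namely Ppara, Slc27a2, Cpt1a, Slc25a20, Hadh, Eci1, Hsd17b4, Pex11a and Eci2. In the remaining 20 members at least 1 KspCre DKO library lay within the control range. The share with both libraries below all controls is near that of all genes and is no result about the members.

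**Figure D4:**
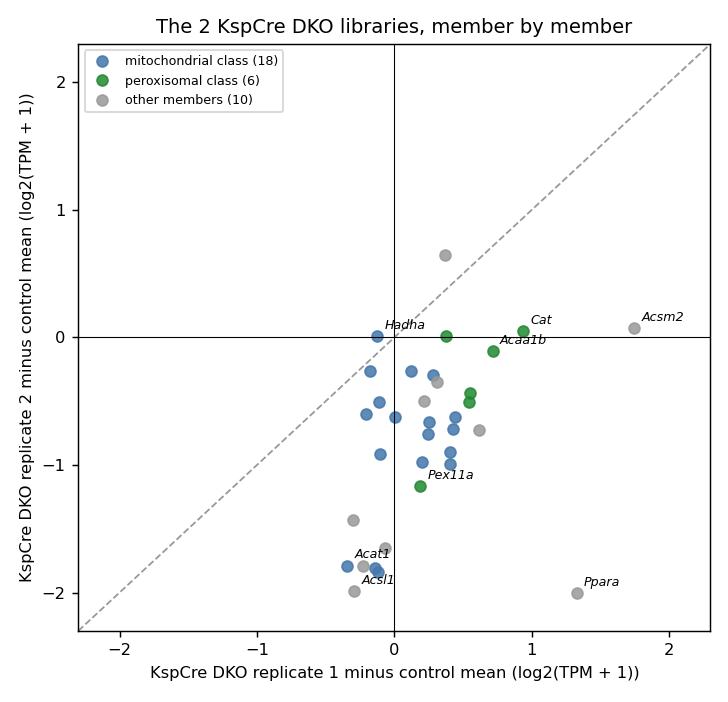
Log2 difference of each KspCre DKO library from the control mean on the log2(TPM + 1) scale, replicate 1 on the x axis and replicate 2 on the y axis, 1 point per member coloured by class. The median member lies at 0.23 in replicate 1 and -0.64 in replicate 2, and the peroxisomal points lie to the right of most mitochondrial points.

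Replicate 2 also stood apart in general measures. It had 14710 genes above 0 TPM, against 18488 to 20510 in the other 4 libraries, and 31.0% of its TPM came from mitochondrially encoded genes, against 18.2% to 23.2%. The part of these differences in the members' values was not tested. Set alone against the 3 controls, with its spread assumed to be that of the controls, replicate 2 had 6 of 34 members called lower (17.6%), against 470 of all genes (3.39%). They were Acsl1 (-1.99; adjusted p = 0.0428), Hadhb (-1.84; adjusted p = 0.0441), Acaa2 (-1.81; adjusted p = 0.0428), Acot1 (-1.79; adjusted p = 0.0379), Acat1 (-1.79; adjusted p = 0.0432) and Pdk4 (-1.65; adjusted p = 0.049), all by limma. These are values of 1 library, without a replicate of their own. Replicate 1 alone against the controls gave 22 of 34 member estimates above 0, with a median of 0.23. The median of all genes in that fit was also above 0, at 0.13.

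Control libraries differed as well. Control replicate 1 was the highest control in 21 of 34 members (61.8%), against 36.4% of all genes. By class these were 12 of 18 mitochondrial and 5 of 6 peroxisomal members, and the rest belonged to neither class. Dnmt3a, a floxed gene, was at 13.2, 19.0 and 15.5 TPM in controls and 9.98 and 14.2 TPM in KspCre DKO libraries, and Dnmt3b at 1.82, 2.86 and 1.98 against 2.29 and 3.25 TPM. Both overlap between groups, so these gene totals do not check the labels, on which each direction given here depends.

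The wider pathway was counted in lists of other genes, and in none of the 7 lists did a gene pass the test. Of 23 other mitochondrial fatty acid oxidation genes 21 had an estimate below 0 (median -0.43), and without KspCre DKO replicate 2 that median was -0.02. Cpt1b, the muscle type of the outer carnitine palmitoyltransferase, was at 33.4, 72.9 and 49.4 TPM in controls and 22.2 and 17.9 TPM in KspCre DKO libraries, below all controls in both (-1.27; 95% interval -2.09 to -0.44; adjusted p = 0.272, limma). The direction in Cpt1b therefore did not come from replicate 2 alone, unlike that of its relative Cpt1a. Mcee, the methylmalonyl-CoA epimerase, was at 216, 297 and 301 TPM against 179 and 174 TPM in the same order.

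Of 15 other uptake and activation genes 10 had an estimate below 0 (median -0.11). Cd36, a fatty acid translocase, was at 11.6, 4.64 and 7.58 TPM in controls and 3.30 and 3.11 TPM in KspCre DKO libraries, and Acsl5, another long-chain synthetase, at 39.8, 37.2 and 48.3 TPM in controls and 31.96 and 18.19 TPM in KspCre DKO libraries. Their estimates were -1.01 and -0.76, neither past the test. Of 37 other peroxisomal enzymes and transporters 24 lay below 0, with a median of -0.12, near the -0.14 of all genes. The median of the 6 peroxisomal members was 0.13. Without KspCre DKO replicate 1 list and members had medians of -0.64 and -0.27. Without replicate 2 they had 0.35 and 0.55, so the opposite signs were not seen with either library left out. The list's genes of smallest p were Paox, a polyamine oxidase (-0.84; adjusted p = 0.425, limma), and Agps, an enzyme of ether lipid synthesis (-0.71; adjusted p = 0.491, limma).

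Peroxins, which build peroxisomes and import their proteins, had 7 of 15 estimates below 0 and a median of 0.004. That centre needed both KspCre DKO libraries. It fell to -0.29 once replicate 1 was dropped and rose to 0.27 once replicate 2 was dropped instead. Pex11g, a relative of Pex11a, was at 6.09, 5.41 and 3.30 TPM in controls and 7.86 and 10.9 TPM in KspCre DKO libraries, above all controls in both (0.82; adjusted p = 0.480, limma), and Pex2, of the import machinery, had an estimate of -0.52. The estimates for Pex11g and Pex11a thus differed in sign, a difference that was not tested. Among 19 other regulators 11 lay below 0 (median -0.35), and those of smallest p were the PPAR genes Pparg (-0.80; adjusted p = 0.553, limma) and Ppard (-0.64; adjusted p = 0.567, limma).

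Other targets of PPAR-alpha had 7 of 14 estimates below 0 and a median of -0.01 with both KspCre DKO libraries kept. This balance joined a low and a high library. The centre of the list moved to -0.52 once replicate 1 was dropped, and to 0.53 once replicate 2 was dropped instead. Ucp2, an inner mitochondrial membrane carrier, was at 154, 112 and 124 TPM in controls and 378 and 262 TPM in KspCre DKO libraries, above all controls in both (1.28; 95% interval 0.64 to 1.92; adjusted p = 0.163, limma). It passed the threshold with quantile normalization alone (1.56; adjusted p = 0.0394, limma). Mgll, the monoglyceride lipase, had an estimate of 0.65. Fatty acid and triglyceride synthesis genes had 4 of 14 estimates below 0 (median 0.12). Agpat2, an acyltransferase of triglyceride synthesis, was at 25.4, 25.1 and 30.2 TPM in controls and 45.8 and 45.5 TPM in KspCre DKO libraries (0.75; adjusted p = 0.384, limma), and Scd2, a fatty acid desaturase, had an estimate of 0.70.

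Markers of kidney cell types are given beside the members, since the libraries hold the whole organ. The 16 proximal tubule markers summed to 47010, 35200 and 38090 TPM in controls and 29590 and 30090 TPM in KspCre DKO libraries, with a median estimate of -0.12. Leaving out KspCre DKO replicate 1 gave -0.49 and leaving out replicate 2 gave 0.51, so the median marker, like the median member, was lower in replicate 2 than in replicate 1 although the sums were alike. The markers of smallest p were Slc7a13, at 57.9, 49.2 and 71.2 TPM in controls and 12.9 and 32.8 TPM in KspCre DKO libraries, and Slc22a7 (-1.26), while Slc34a1, the phosphate transporter chosen after its values were seen, was at 1831, 1527 and 1119 TPM against 3053 and 1104 TPM.

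Sums did not overlap between the groups for the proximal tubule, thick ascending limb, distal convoluted and connecting tubule, principal cell, intercalated cell, macrophage and both adipose lists, and overlapped for podocyte, endothelial and fibroblast markers. Of all single genes tested, 15.6% had both KspCre DKO libraries below all controls and 10.5% had both above. A sum is carried by the most abundant genes of its list. Thick ascending limb markers summed to 2561, 2824 and 2909 TPM in controls and 1356 and 785.6 TPM in KspCre DKO libraries, with all 10 estimates below 0. Principal cell markers summed to 1043, 1113 and 1070 TPM in controls and 2521 and 2513 TPM in KspCre DKO libraries, and distal convoluted and connecting tubule markers to 6745 to 9377 against 5299 and 6208 TPM. Intercalated cell markers summed to 249.9 to 276.5 TPM in controls and 236.8 and 177.1 TPM in KspCre DKO libraries, podocyte markers to 90.69 to 256.6 against 178.3 and 143.7, and endothelial markers to 111.2 to 218.5 against 210.4 and 138.7. Fibroblast markers summed to 90.17 to 213.4 TPM in controls and 77.24 and 116.7 TPM in KspCre DKO libraries, and macrophage markers to 78.58 to 113.6 against 50.78 and 47.46 TPM.

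Fat around the kidney also expresses many of the members. White adipose markers summed to 191.5 to 317.9 TPM in controls and 91.15 and 75.9 TPM in KspCre DKO libraries, and brown adipose markers to 99.81 to 143.9 against 71.37 and 40.36 TPM. The defining markers Adipoq, Plin1, Lep and Cidec of white fat and Ucp1, Cidea, Elovl3 and Dio2 of brown fat were below 1 TPM in every library. Only 2 of 6 white and 1 of 6 brown adipose markers were abundant enough to be tested. No marker of any of the 11 lists passed the test. Apart from these values, the part of the cell makeup in the members' values was not tested.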

How the data were processed

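Polyadenylated RNA of whole kidneys was sequenced, per the labels' protocols. STAR 2.2.1, RSEM 1.3.1, Trim Galore 0.5.0, Bismark 0.19.1 and build mm10 appear in the submitters' processing notes. What is not given in the sources used here is the tool behind each file, the annotation and the strandedness. The authors deposited TPM per gene. Read numbers cannot be had from TPM, so the depth behind each value is unknown and no interval for counting error is given.

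Identifiers were paired with symbols without their version, which matched 54079 of 54146 (52480 with the version). Groups were compared with limma 3.58.1 (R 4.3.3), two-sided, with an intensity trend, on log2(TPM + 1). The 13963 genes whose mean over 5 libraries reached 1 TPM were tested. Benjamini-Hochberg adjustment ran over all of them, and 0.05 was the threshold. The fit was tested on simulated data whose changes were larger than the estimate of any member. That is no check for changes of the members' size. Positions and promoter windows come from RefSeq for GRCm38.p6, the build family of mm10.

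The members, the 7 pathway lists and the 11 marker lists were chosen with earlier results of these data known. All 34 members are described. Of each pathway list the 2 genes of smallest p, and of the proximal tubule markers the 2 of smallest p are named. Other genes of the naming rule are not reported here. Alternatives were other pseudocounts (0.1 and 5), filters (none, or a mean of 5 TPM), scalings, no trend, the replicate block and each library left out. Leaving out each peroxisomal member, and the contrast over the rest of the pathway, were added after seeing the data.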

Additional observations from a re-analysis of the deposited data

How the results depend on the processing

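No member was called under any alternative except the fit without KspCre DKO replicate 1, and the smallest adjusted p outside the left-out libraries was 0.261. The mean filter of 5 TPM tested 32 members. Genes called over the whole table numbered 14 with pseudocount 0.1, 39 with pseudocount 5, 4 with no filter, 42 with quantile normalization, 37 rescaled without mitochondrially encoded genes and 9 without the trend. They ranged from 6 to 560 with 1 library left out, over which members called ranged from 0 to 6, other pathway genes from 0 to 5 and cell type markers from 0 to 5. Quantile normalization called 1 other pathway gene and 1 marker, and markers called were 2 with pseudocount 5, 1 with the mean filter of 5 TPM, 1 with median-of-ratios scaling and 2 without mitochondrially encoded genes. With every library kept, these markers were Aqp2 and Elf5 of principal cells, both higher, and the pathway gene was Ucp2.

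The replicate block called 75 genes, 0 members and 2 markers. Control replicate 3 has no partner and adds nothing to its fold changes. The titles do not say whether equal numbers mark a pair. Deviations of same-numbered libraries correlated at 0.0926 and 0.0281. With 2 KspCre DKO libraries their deviations are exact opposites, so these values cannot decide on a pairing. The block turned Ehhadh to -0.20 and Hsd17b4 to -0.04, so that 3 of 6 peroxisomal members lay below 0. The organelle difference over the rest of the pathway was -0.26.

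Signs held in 24 of 34 members under the alternatives that kept every library and in 15 of 34 with each library left out. The median of all genes was -0.03 with median-of-ratios scaling, -0.02 with quantile normalization and -0.04 without mitochondrially encoded genes, against -0.14. Under these 3 scalings, in this order, Slc27a2 came to 0.07, 0.27 and 0.06, Etfdh to 0.05, 0.01 and 0.04, Hadha to 0.06, 0.11 and 0.05, Hadh to 0.03, 0.11 and 0.02, Eci1 to 0.11, 0.15 and 0.11, and Eci2 to 0.10, 0.12 and 0.09. Quantile normalization also turned Etfb to 0.06 and Echs1 to 0.01. Members whose sign changed with a left-out library had these lowest and highest estimates over the 5 fits: Ppara -2.0 to 1.33, Slc27a2 -0.72 to 0.61, Cpt1a -0.90 to 0.40, Slc25a20 -0.98 to 0.20, Acads -0.99 to 0.40, Etfa -0.76 to 0.25, Etfb -0.63 to 0.00, Etfdh -0.27 to 0.14, Hadha -0.13 to 0.01, Hadh -0.63 to 0.44, Echs1 -0.72 to 0.43, Eci1 -0.29 to 0.28, Decr1 -0.66 to 0.26, Ehhadh -0.43 to 0.55, Hsd17b4 -0.51 to 0.54, Acaa1b -0.11 to 0.72, Pex11a -1.17 to 0.19, Eci2 -0.35 to 0.31 and Crat -0.50 to 0.21. The cause was not tested. TPM hold no depth, so differences of low members such as Ppara and Acsm3 cannot be set against counting error.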
